A study of Rattus norvegicus with 3 samples.

Results

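The cells were Rat1_Myc and Rat1_vector fibroblasts of Rat1, an established rat cell line. The enzymes followed make serine, pass on its carbon, carry methyl groups and build purines and polyamines. They were chosen by the deposited protein name: every entry named SERA, GLYM, METK, SAHH, PUR4, PUR6 or SPEE, whatever the species suffix, and the entry AK012355_1, a serine hydroxymethyltransferase. This gave 10 entries for 7 enzymes, out of 1052 entry names in the series. The rule goes by name alone, but the enzymes were picked with earlier results of these data known. The entry names are not spelled out in the deposited tables, so the enzyme names below are a reading of them from general knowledge.

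The study compared Rat1_Myc cells with Rat1_vector cells, which carry the vector without Myc, each after 12 h without serum. The sample titles name this condition as apoptosis, which none of the values below measures. Vector protein carried the light and Myc protein the heavy isotope-coded affinity tag (ICAT), a reagent that binds cysteine, so a tagged peptide yields the abundance in Myc cells over that in vector cells. A soluble and a chromatin-enriched fraction were labelled with 2.5 mg of protein per cell line and a crude mitochondrial fraction with 250 ug. Each fraction was 1 mixture, and the labels were never swapped. There is thus no replicate check and no p-value, and a difference between the reagents cannot be told apart from one between the cells. Each ± below is the deposited SD within 1 mixture. The labels do not say how many clones stand behind each cell line or how Myc was introduced.

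Phosphoglycerate dehydrogenase (SERA) takes the first step from glycolysis into serine. Serine hydroxymethyltransferase (GLYM is the mitochondrial form) turns serine into glycine and hands its carbon to folate, which feeds purine and thymidylate synthesis. S-adenosylmethionine synthetase (METK) makes the methyl donor of the cell, adenosylhomocysteinase (SAHH) clears what is left after the methyl group has been passed on, and spermidine synthase (SPEE) uses the decarboxylated donor to make a polyamine. PUR4 and PUR6 are steps of purine synthesis. Myc is a transcription factor that binds, with its partner Max, a DNA motif called the E-box, and genes of purine and polyamine synthesis are among its known targets.

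Of the 12 member protein ratios, 9 were above 1 and 7 were above the median ratio of their own fraction. Over all entries 71% of the soluble, 68.7% of the chromatin and 65.2% of the mitochondrial ratios were above 1, so the members' share was near that of the tables. An entry was called higher or lower when its protein ratio stood at least 1.5-fold from 1 and the distance from 1, in natural logs, exceeded 2 deposited errors, each error being the SD divided by the ratio. METK in the soluble fraction, GLYM in the chromatin fraction and SERA in the mitochondrial fraction were called higher, and no member was called lower. The other 9 ratios did not meet the rule, and SPEE had no usable ratio.

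The soluble, chromatin and mitochondrial tables held 3608, 2386 and 789 peptide lines, with a protein ratio for 542 of 620, 364 of 400 and 201 of 207 entries. The median ratio over all entries was 1.34, 1.24 and 1.15 in that order, so values are also given relative to these medians ("centred"). Between 66.7% and 71.4% of the ratios in a fraction rested on 1 peptide. Markers of the fractions were checked as lines per name: of 8 names for mitochondria 1, 4 and 2 were found in the 3 tables, in the same order. Of 8 histone and lamin names 0, 4 and 1 were found, of 9 fibroblast names 3, 6 and 5, and of 5 epithelial names 0 in every table. The tag needs a cysteine, and whether each of these proteins holds one was not checked. A name that was not found is therefore no evidence that the protein was absent. The mitochondrial names gave 92, 144 and 19 lines in the same order. The channel names POR1, POR2 and POR3 gave 28, 38 and 60 lines in the chromatin-enriched fraction and 5, 0 and 0 in the mitochondrial one. The chromatin-enriched fraction thus held mitochondrial channel proteins, on more lines than the mitochondrial fraction did. A ratio in a fraction cannot tell a change in amount from a change in where a protein was recovered.

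**Figure D1:**
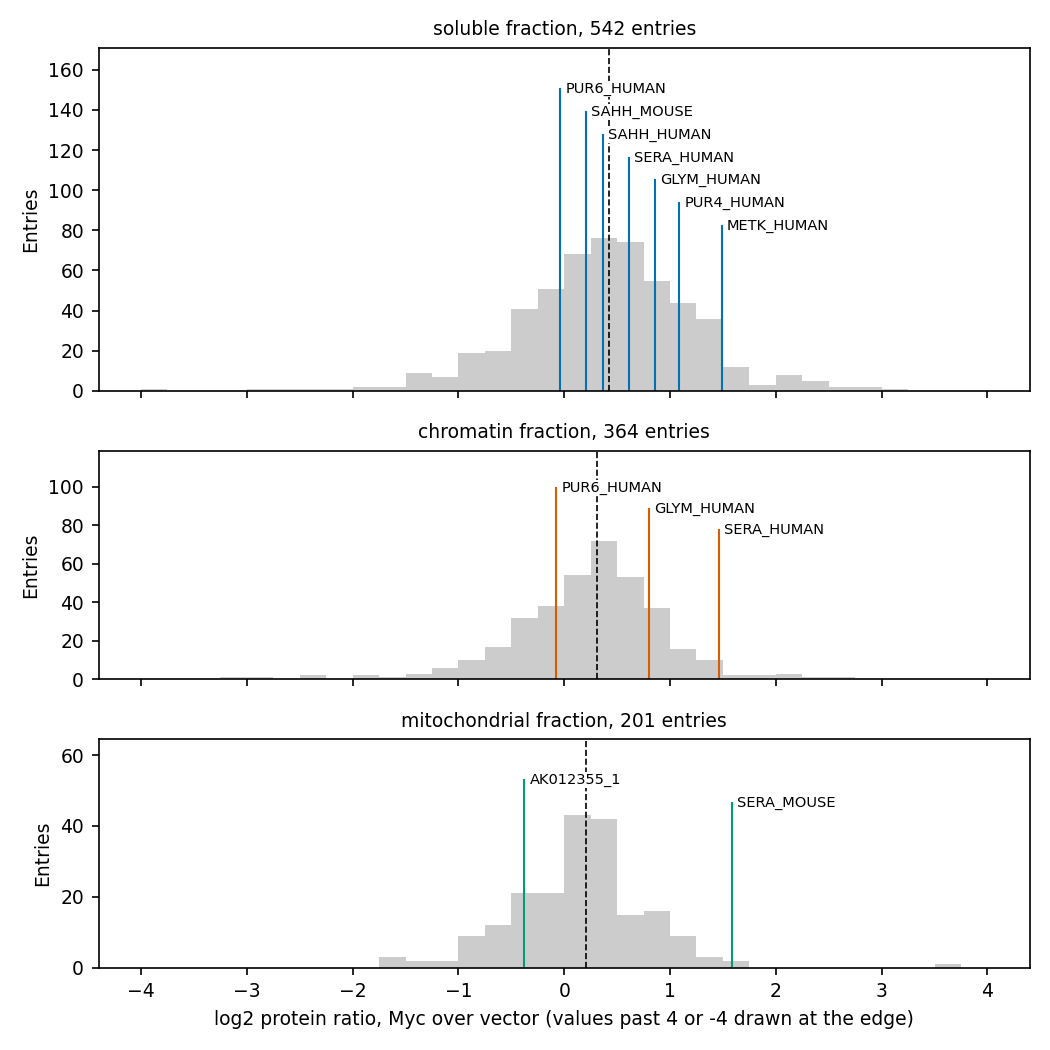
Histograms of the log2 protein ratio of Myc over vector (x axis, without unit) for all quantified entries of each fraction, with the number of entries on the y axis. Coloured lines are the member entries and the dashed line is the fraction's median. METK_HUMAN in the soluble fraction and SERA_MOUSE in the mitochondrial fraction lie in the upper tail, and PUR6_HUMAN lies left of the median in both fractions in which it was found.

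The DNA around the promoter starts given for the enzymes' genes is shown where it holds the E-box letters CACGTG, because the contrast is one of Myc. The windows are RefSeq promoters of the rat assembly GRCr8, with 250 bases before and 50 after the start, and all 7 member genes and the 10 genes of related enzymes described below had one. The motif reads the same on both strands. It was found in 1 member window, that of Srm, the spermidine synthase gene, and in 2 windows of related enzymes, Shmt1 (cytosolic serine hydroxymethyltransferase, GLYC) and Atic (PUR9). Among all 33469 windows of this length, 6.42% held it. Capitals mark the motif, with 20 bases on either side, in the direction of the gene.
Srm, chr5:164308809-164308854, plus strand: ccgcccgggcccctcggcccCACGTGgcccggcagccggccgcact
Shmt1, chr10:45990405-45990450, minus strand: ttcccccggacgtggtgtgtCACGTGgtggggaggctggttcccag
Shmt1, chr10:45990377-45990422, minus strand: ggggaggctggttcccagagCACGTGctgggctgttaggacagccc
Atic, chr9:80614241-80614286, plus strand: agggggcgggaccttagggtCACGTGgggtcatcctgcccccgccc
Atic, chr9:80614307-80614352, plus strand: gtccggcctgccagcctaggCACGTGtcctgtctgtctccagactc
The windows of Phgdh, Shmt2, Mat2a, Ahcy, Pfas and Paics did not hold these letters, which says nothing about sites elsewhere. Those of Pfas and Paics lie inside the annotated gene, as do those of Psat1 (SERC) and Prmt1 (ANM1) among the related enzymes. The last Atic motif shown lies after the gene start and the other motifs before it. A match is a description of the letters and not a measured binding site.

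**Figure D2:**
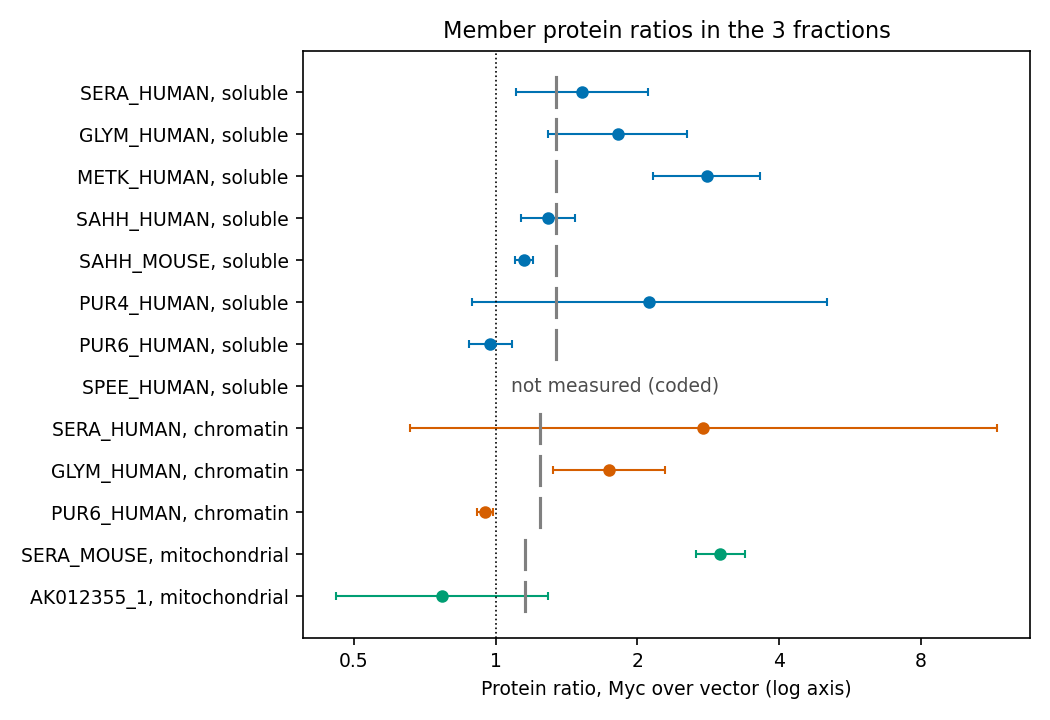
Protein ratio of Myc over vector (x axis, log scale, without unit) for every member entry and fraction, with bars of 1 deposited error (SD over ratio) on the log scale. The dotted line is 1 and each short grey line is the median of all entries in that fraction. The bars of SERA_MOUSE in the mitochondrial, METK_HUMAN in the soluble and GLYM_HUMAN in the chromatin fraction lie wholly above both. Those of SERA_HUMAN in chromatin and of PUR4_HUMAN span from below 1 to above 4.

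Phosphoglycerate dehydrogenase (gene Phgdh, GRCr8 chr2:188595700-188624789) was above 1 in every usable measurement. It gave 28 lines in the 3 fractions under SERA_HUMAN and SERA_MOUSE. Lines that repeat a ratio and its SD were counted as 1 measurement and coded lines were left out, which left 17, all above 1. These are repeated readings of a few peptides from 1 mixture per fraction and not replicates. In the mitochondrial fraction the protein ratio of the enzyme was 3.001 ± 0.365, from 2 peptides, which lay 9.04 errors above 1 and was called higher. It ranked 3 from the top among 201 entries, and the centred ratio of 2.60 was called higher as well. This ratio rests on 2 lines, where the soluble fraction held 23 lines of the enzyme. Whether it reflects the amount of the enzyme or where the enzyme was recovered was not tested.

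The same enzyme did not meet the rule in the other fractions. In the soluble fraction its protein ratio was 1.524 ± 0.493 from 3 peptides, 1.302 errors above 1, with a rank of 213 among 542 entries. In the chromatin fraction it was 2.759 ± 3.958 from 1 usable line, so that an interval of 2 errors runs from 0.157 to 48.6. That interval holds both directions, and the high rank of 10 among 364 entries rests on that single line.

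The peptides of phosphoglycerate dehydrogenase did not agree on a size in the soluble fraction. A peptide of 23 residues gave 1.475, 1.765, 1.993 and 2.588. A peptide of 19 residues gave 9 measurements with a lowest of 1.539, a median of 2.483 and a highest of 6.931. A peptide of 14 residues gave a single value of 1.114 ± 0.080. The 14-residue peptide was below every measurement of the other peptides, and the 19-residue peptide spread over a 4.50-fold range. Among 144 soluble peptides with at least 5 measurements the median range was 2.42-fold, and 38 had a larger one than the 19-residue peptide. Its 4 highest values, 4.237 ± 4.105, 4.848 ± 1.864, 5.303 ± 5.222 and 6.931 ± 1.986, carried deposited SDs of 28.7% to 98.5% of the ratio, and its lowest, 1.539 ± 1.167, one of 75.8%.

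The geometric mean over the 3 soluble peptides, each counted once, was 1.87, above the deposited 1.524. In the mitochondrial fraction the 23-residue peptide gave 2.960 ± 0.163 and the 19-residue peptide 3.964 ± 1.413, both on 1 line. Both were higher there than their own soluble medians of 1.88 and 2.48; the first lay above its soluble range and the second within it. Of the 23-residue lines in the soluble fraction 5 of 9 were coded as not measured, 3 with the code 0 and 2 with the large positive code of the legend, and in the chromatin fraction 2 of 3 lines were coded. The legend does not say which label was missing under which code, so these lines give no direction.

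**Figure D3:**
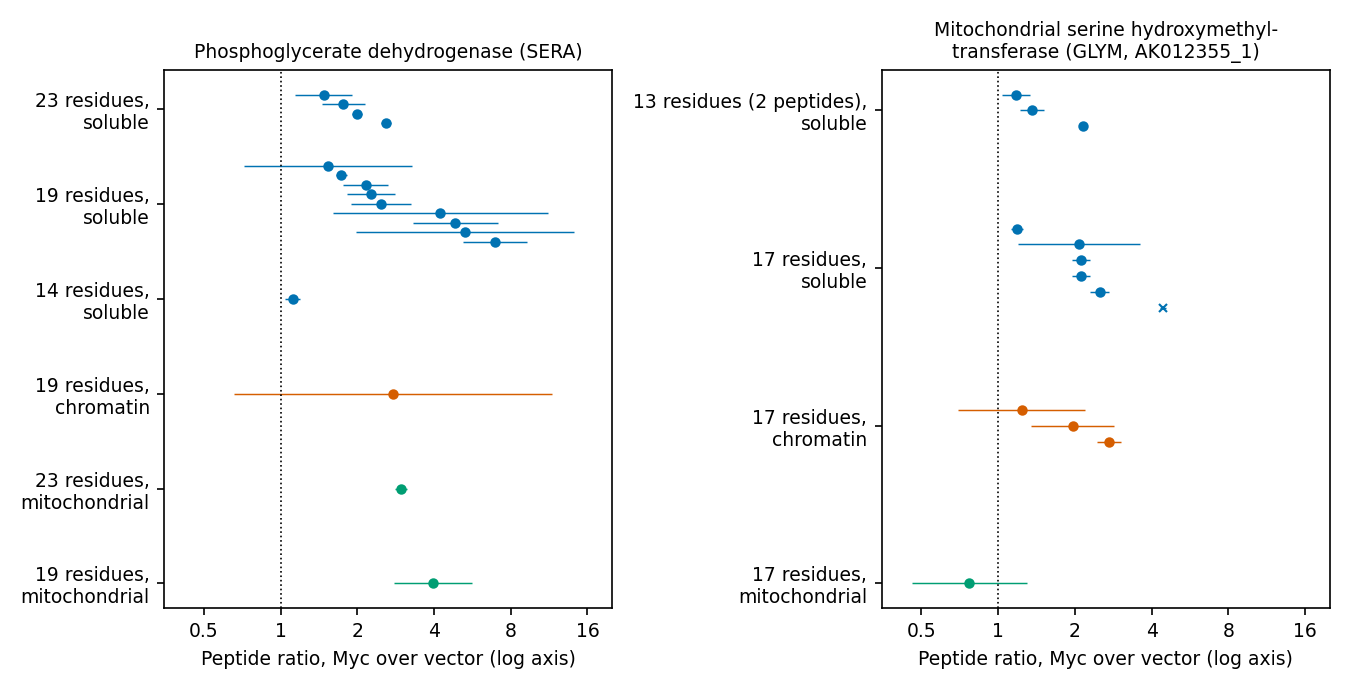
Peptide ratios of Myc over vector (x axis, log scale, without unit) for phosphoglycerate dehydrogenase (left) and mitochondrial serine hydroxymethyltransferase (right), by peptide length and fraction on the y axis. Points are distinct measurements, sorted by value, with bars of 1 deposited error on the log scale, and the cross is a line with a question mark in the table. All points of the left panel lie above 1, and the mitochondrial point of the right panel lies below 1 with a bar that crosses it.

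Mitochondrial serine hydroxymethyltransferase (gene Shmt2, chr7:65244247-65249580) had close ratios in the soluble and chromatin fractions. The protein ratio was 1.816 ± 0.618 in the soluble fraction, 1.75 errors above 1 and not called. It was 1.740 ± 0.474 in the chromatin fraction, 2.03 errors above 1 and called higher by a narrow margin. Centred on the chromatin median it was 1.40 and was no longer called. That 1 of these close ratios met the rule and the other did not shows no difference between the fractions.

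In the soluble fraction 3 peptides stood behind it. A peptide of 17 residues gave 1.182, 2.075, 2.114, 2.120 and 2.501, and a line with a question mark, which the deposited protein ratio appears to leave out, gave 4.448 ± 0.123. The 2 peptides of 13 residues gave 1.361 and 2.158 for one and 1.177 for the other. All 8 measurements were above 1, and the 17-residue peptide had a 2.12-fold range, under the median of soluble peptides. The chromatin ratio rests on the same 17-residue peptide, with 1.237, 1.963 and 2.718.

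In the mitochondrial fraction that 17-residue peptide was listed under AK012355_1 and gave 0.770 ± 0.399 on 1 line. It was the only one of the 12 measurements of this enzyme below 1. At -0.504 errors from 1 it did not meet the rule, and its interval of 2 errors, 0.273 to 2.17, holds the ratios of the other fractions. Hsp60 (CH60), another mitochondrial matrix protein, was itself listed with 92 soluble, 18 chromatin and 14 mitochondrial lines. How matrix proteins came to lie in the soluble fraction was not tested.

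S-adenosylmethionine synthetase (gene Mat2a, chr4:106048043-106053612) had the highest ratio of the members in the soluble fraction and was not found elsewhere. Its protein ratio was 2.806 ± 0.730, 3.97 errors above 1, and was called higher, with a rank of 36 among 542 entries. The centred ratio of 2.09 was called higher too. A peptide of 21 residues gave 3.030 ± 0.273 on 1 line and a peptide of 23 residues 1.920 ± 0.274 on 1 usable line of 3, the other 2 being coded -1. Both peptides were above the soluble median, and the deposited ratio lay nearer to the first. Their geometric mean was 2.41.

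Adenosylhomocysteinase (gene Ahcy, chr3:164029338-164044562), which acts after the methyl transfer, stayed under the fold of the rule in the soluble fraction. SAHH_HUMAN had a protein ratio of 1.291 ± 0.168, 1.96 errors above 1, from a peptide of 10 residues. That peptide gave 7 measurements with a lowest of 0.997, a median of 1.537 and a highest of 1.822. SAHH_MOUSE, from another peptide of 19 residues and 1 line, had 1.151 ± 0.051. As deposited, both entries were below the soluble median of 1.34, but the geometric mean of the SAHH_HUMAN measurements, 1.44, was above it. The mean of the pair weighted by error was 1.16 ± 0.0489, close to SAHH_MOUSE, which had the smaller SD. The SAHH_MOUSE ratio lay 3.17 errors above 1 but was too small for the rule.

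The purine enzymes pointed to no common change. Phosphoribosylformylglycinamidine synthase (PUR4_HUMAN, gene Pfas, chr10:54189157-54210685) had a soluble ratio of 2.119 ± 1.841 from 1 usable line of 2, only 0.864 errors above 1. Its interval of 2 errors ran from 0.373 to 12.0, so a difference was not detectable at this precision. The bifunctional enzyme of the later steps (PUR6_HUMAN, gene Paics, chr14:31553355-31586843) was close to 1 in both fractions in which it was found. Its protein ratio was 0.974 ± 0.102 in the soluble and 0.949 ± 0.037 in the chromatin fraction.

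PUR6 was the member with the lowest ratio in each of those fractions, and below the median of each, at centred ratios of 0.725 and 0.764. In the soluble table its ratio is given as made from 2 peptides, while only 1 usable line of 1 peptide, 0.787 ± 0.071, was found there beside a coded one. In the chromatin table it rests on 1 line with an identification probability of 0.786, the lowest among the lines of the members. That line is a peptide of 22 residues with 2 cysteines, which ends in the 16-residue peptide of the soluble table.

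Spermidine synthase (SPEE_HUMAN, gene Srm, chr5:164309002-164312203), the only enzyme of polyamine synthesis among the members, had no usable ratio. It was identified in the soluble fraction by 3 lines of a peptide of 21 residues, with probabilities from 0.948 to 1. Of these lines 2 carried the large positive code and 1 the code -1. Acceptable peaks were thus missing for at least one label, and nothing can be said of its level.

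The member calls are given here beside the share of all entries of the same fraction. In the soluble fraction 1 of 7 members was called higher and 0 lower, where 30.6% of all 542 entries were called higher and 8.12% lower. After centring, 1 of 7 was called higher and 0 lower, against 12.9% and 17% of all entries. In the chromatin fraction 1 of 3 was called higher and 0 lower, against 20.3% and 7.42%, and after centring 0 of 3 in either direction, against 9.34% higher and 13.2% lower. In the mitochondrial fraction 1 of 2 was called higher and 0 lower, against 10.9% and 7.46%, and after centring 1 of 2 was higher and 0 lower, against 6.97% and 11.4%. The median member ratio was 1.524 in the soluble fraction, where all entries had 1.34, and 1.740 among the 3 chromatin members, where all entries had 1.24. In each fraction the members were too few for such a share to be read.

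Enzymes that work next to the members were looked up from a list of 71 names from serine, folate, methyl-group, nucleotide and polyamine metabolism. The soluble table held 10 of them, all with a ratio, and the other tables held 0. Of the 10, 2 were called higher and 0 lower, 8 were above 1 and 5 above the soluble median, and their own median of 1.34 was that of all entries. Among all soluble entries 30.6% were higher, 8.12% lower and 71% above 1, so the list's count of higher calls was not above the background and its count above 1 was near it. Cytosolic serine hydroxymethyltransferase (GLYC_HUMAN) was higher at 1.848 ± 0.120, from 3 measurements of 2 peptides between 1.761 and 1.849. Its ratio was close to the 1.816 of the mitochondrial form but with a much smaller error. Methylthioadenosine phosphorylase (MTAP_MOUSE), which salvages the by-product of polyamine synthesis, was higher at 1.659 ± 0.147, from 7 measurements of 3 peptides between 1.375 and 2.761.

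Neither of these was called after centring, when 0 of the 10 were higher and 2 were lower, beside 12.9% and 17% of all soluble entries. The latter were ornithine aminotransferase (OAT_HUMAN) and the protein arginine methyltransferase ANM1_HUMAN. OAT_HUMAN was at 0.730 ± 0.106 as deposited and 0.543 centred, and ANM1_HUMAN, on 1 line, at 0.789 ± 0.114 and 0.587. As deposited neither met the rule, and OAT_HUMAN was the lowest of the list. The highest entry that was not called was PUR2_MOUSE, a trifunctional enzyme of purine synthesis, at 2.065 ± 3.523, whose 4 measurements of 1 peptide ran from 0.524 to 6.067. The remaining 5, SERC_MOUSE, IMD2_HUMAN, PUR9_HUMAN, PNPH_MOUSE and PYR1_HUMAN, lay between 1.278 and 1.465 and did not meet the rule.

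SERC_MOUSE, the transaminase that follows phosphoglycerate dehydrogenase in serine synthesis, was at 1.327 ± 0.105 on 1 line, close to the soluble median. Of the 2 listed enzymes whose promoter windows hold the E-box letters, GLYC_HUMAN (Shmt1) was called higher at 1.848 ± 0.120, though not after centring. PUR9_HUMAN (Atic), on 1 line, was not called at 1.278 ± 0.049. Whether the letters bear on the ratios was not tested. A further 4 entries outside the list were chosen after their values were seen. Of these, glycyl-tRNA synthetase (SYG_MOUSE), which uses glycine, was called higher at 2.057 ± 0.078 in the soluble fraction, on 1 line. The enzyme 10-formyltetrahydrofolate dehydrogenase (FTDH_MOUSE), which removes folate-bound carbon, was called lower at 0.659 ± 0.084 in the chromatin fraction, on 1 line with a probability of 0.801. Glutamine synthetase (GLNA_MOUSE) at 1.346 ± 0.058 on 1 line and an adenylosuccinate synthetase (PUA2_MOUSE) at 1.284 ± 0.274, both soluble, were not called.

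**Figure D4:**
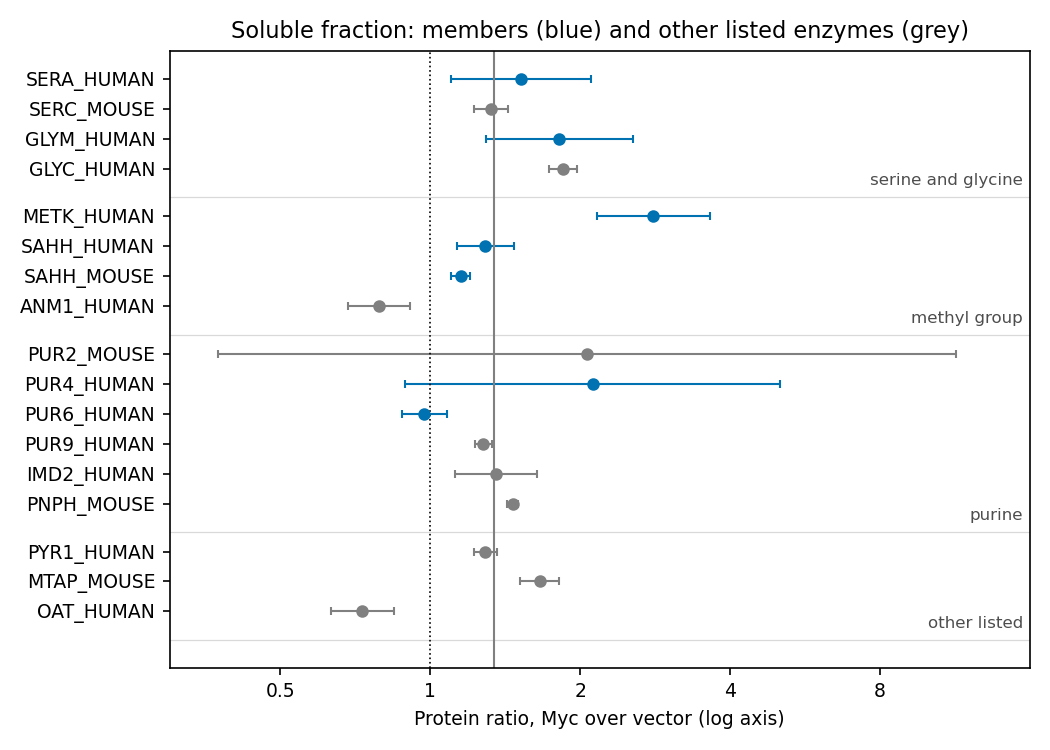
Protein ratio of Myc over vector in the soluble fraction (x axis, log scale, without unit) for the members (blue) and the 10 other listed enzymes (grey), grouped by pathway, with bars of 1 deposited error on the log scale. The dotted line is 1 and the grey line is the median of all soluble entries. METK_HUMAN has the highest ratio, and OAT_HUMAN, ANM1_HUMAN and PUR6_HUMAN are those below 1.

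Between fractions, 3 enzymes could be compared in 7 pairs, and 0 differed, where a difference had to reach 1.5-fold and exceed 2 combined errors. The widest gap for phosphoglycerate dehydrogenase was between the mitochondrial and the soluble fraction, 1.97-fold and 1.96 combined errors apart, just short of the rule. The interval of 2 errors on that ratio was 0.986 to 3.93. Relative to the medians of the fractions the gap was 2.295-fold and 2.40 errors, which met the rule. Over only the 2 peptides found in both fractions it was 1.41-fold and did not. That last comparison leaves out the soluble 14-residue peptide at 1.114 and uses peptide means in place of deposited protein ratios.

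For mitochondrial serine hydroxymethyltransferase the mitochondrial ratio was 0.424 times the soluble one, at 1.38 combined errors and with an interval of 0.123 to 1.47. It was 0.443 times the chromatin ratio, at 1.39 errors. Chromatin over soluble was 0.958 for this enzyme and 0.974 for PUR6, the smallest gaps of the 7. The intervals for these 2 were 0.401 to 2.29 and 0.779 to 1.22, and that for PUR6 was the narrowest.

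Whether the peptides were specific to their entries cannot be told, because each line names only 1 entry even where a peptide fits several. The members were identified by 14 distinct tagged peptides on 69 lines, of which 14 lines were coded. Outside the members, 0 entries listed any of these peptides. Of the 14 peptides 3 were found in more than one fraction and 2, the 19-residue peptide of phosphoglycerate dehydrogenase and the 17-residue peptide of serine hydroxymethyltransferase, in all 3. Every one of the 14 holds at least 1 cysteine, which the tag requires, so each enzyme was seen through these few peptides alone.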

How the data were processed

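Per the authors' legend, each line of the deposited tables is a peptide, with a PeptideProphet probability and a linear ratio (Myc over vector) with its SD. The protein ratio, its SD and number of peptides were read from 1 text cell. Per the labels, spectra were searched against a rat, mouse and human database and the authors computed ratios with ASAPRatio, with versions not given in the sources used here. Entries are named by species other than rat. The codes 0, 9999 and -1 mark ratios that were not measured. Lines of 1 peptide whose ratios lie within 0.5% and SDs within 1% were taken as 1 measurement, and peptide means are geometric and leave out question-marked lines. Per-fraction medians served for centring. Members, lists and rules were chosen with earlier results of these data known. Named are every member entry, each listed enzyme that was called and the highest and lowest of the rest, with others shown as examples. The counting script was tested on simulated data. Promoters and gene positions come from RefSeq tables of GRCr8, matched by the gene symbol read from each entry name. Python 3.11.15, numpy 2.4.6 and matplotlib 3.10.9 were used.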

Additional observations from a re-analysis of the deposited data

How the results depend on the processing

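Of 38 counts under alternative settings, 29 stayed within 1.5 times of the reported count and 9 moved. Of 59 alternative values of the 12 member ratios, 46 lay within the deposited SD of the reported ratio and 13 beyond it, and 0 turned direction while called. Every alternative value of SERA_MOUSE in the mitochondrial fraction lay beyond its SD, at 2.60 centred and 3.43 as a peptide mean. The same held for PUR6_HUMAN in the soluble fraction, at 0.725 centred and 0.787 as a peptide mean. Soluble members called rose from 1 to 3 when more than 1 error from 1 was asked for and to 4 with no error rule. Chromatin members called went from 1 to 0 at a fold of at least 2, at more than 3 errors and after centring, and to 2 with no error rule. The mitochondrial count stayed at 1 in each alternative run. Listed soluble enzymes called went from 2 to 5 at a fold of at least 1.3, of which 4 were higher and 1 lower, and to 0 at a fold of at least 2. After centring that count stayed at 2, with 0 higher and 2 lower. Pairs of fractions that differed went from 0 to 1 after centring. The question-marked lines and the weighting of every line were examined after seeing the data. At least 2 distinct peptides left no chromatin member, and the list had no entry outside the soluble table, so no value was made there. No paired analysis was possible because each fraction is 1 mixture.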
